A study of Homo sapiens with 24 samples.

Results

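C-type lectin receptors, a family of surface proteins by which myeloid cells bind sugars, lipids and damaged cells, were followed in macrophage-like cells, obtained by treating the established human monocytic line THP-1 (from a leukaemia) with the phorbol ester PMA. The set was chosen by gene symbol and holds 8 genes, CLEC4A, CLEC4D, CLEC4E, CLEC5A, CLEC7A, CLEC10A, CLEC12A and the adaptor CARD9. CARD9 was not analysed here, which leaves 7 receptors, beside 38735 named genes in the whole table. The 24 poly-A RNA libraries form 4 groups of 6, and every group had 100 nM PMA for 24 h. Control cells then had medium alone. DCVC cells had 5 µM DCVC for 24 h, a cysteine conjugate that arises from the solvent trichloroethylene. LPS cells had lipopolysaccharide, an outer-membrane component of gram-negative bacteria, at 100 ng/mL for 4 h, and DCVC_LPS cells had both, with DCVC first and LPS after fresh medium. The series asks whether DCVC dampens the transcriptional response to LPS.

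Activating receptors of this family signal through a tyrosine motif, either in their own tail, as in CLEC7A, or in a partner chain, FCER1G for CLEC4E and CLEC4D and TYROBP for CLEC5A. The kinase SYK reads the motif, and CARD9 with BCL10 and MALT1 carries the signal on to NF-kB. Inhibitory members such as CLEC12A and CLEC4A recruit phosphatases in place of SYK, and CLEC10A takes up galactose-type sugars. In macrophages these receptors are known for recognition of fungi and mycobacteria.

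Separate cultures for the 6 libraries of a group are not stated in the labels, and p-values therefore reflect the spread between libraries, part or all of which may be technical. Depth was 18478618 to 30107819 reads per library in named genes. Levels are normalized counts, the deposited unit in which reads are divided by 1 factor per library. All 10 monocyte and macrophage markers reached a mean of 10 normalized counts over the 24 libraries. The lowest of them in Control was CD68, at 5.28 ± 2.67 (SD, n = 6). Markers of other cells reached that mean for 1 of 5 T cell genes, 2 of 4 fibroblast genes and 0 of the 3 B cell, 4 erythroid and 4 epithelial genes. The T cell gene was TRAC, at 2288 ± 241.9 in Control, 198.9 ± 66.9 in LPS, 1585 ± 183.4 in DCVC and 240.6 ± 55.9 in DCVC_LPS, while CD2 was at 0 throughout and CD3E had no more than 2 reads in a group. The fibroblast genes were COL1A1 (mean over 24 libraries 31.7) and PDGFRB, which stood at 25.1 ± 8.85 in Control and 126.9 ± 14.1 in DCVC. The part of these genes' sources in the receptor values was not tested. Libraries of the same letter, A to F in the titles, deviated together across groups. Neighbouring letters (A/B, C/D, E/F) stood close in CLEC5A, but E and F stood apart for CLEC7A in Control (39.6 and 86.0). Such likeness was not measured over all genes. Changes within these pairs are given beside those over all letters. A rescaling to equal totals shifts the all-gene median log2 change by -0.47 for LPS against Control, by 0.25 for DCVC against Control and by 0.43 for DCVC_LPS against LPS. In bulk RNA, fewer cells with a transcript and less of it per cell cannot be told apart.

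CLEC7A, CLEC10A and CLEC12A were lower with DCVC, both in resting cells and in cells given LPS. For CLEC12A, the lower level in cells given LPS rested on 9 reads against 31, and no letter pair fitted apart passed the test. CLEC4E rose with LPS, and its level with LPS was lower after DCVC. CLEC5A, the highest of the set in reads, passed the test with LPS and with DCVC when the letter was a term of the fit. In the fit of all libraries without that term it did not. With LPS the call was lost under equal totals, while on the deposited scale all 3 letter pairs fitted apart held it. With DCVC the call stayed under equal totals, and 1 of the 3 letter pairs fitted apart held it. CLEC4A and CLEC4D were barely detected. With a minimum mean of 10 normalized counts, 3 of the 7 receptors were tested, namely CLEC5A (mean over the 24 libraries 110.7), CLEC7A (27.0) and CLEC10A (16.5). CLEC10A passed through its Control and LPS libraries, since its means in DCVC and DCVC_LPS were under 10. The other 4 fell below the minimum, at 7.74 for CLEC12A, 3.32 for CLEC4E, 0.253 for CLEC4A and 0.0355 for CLEC4D, and were read in a fit of all 25377 genes with any read.

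**Figure D1:**
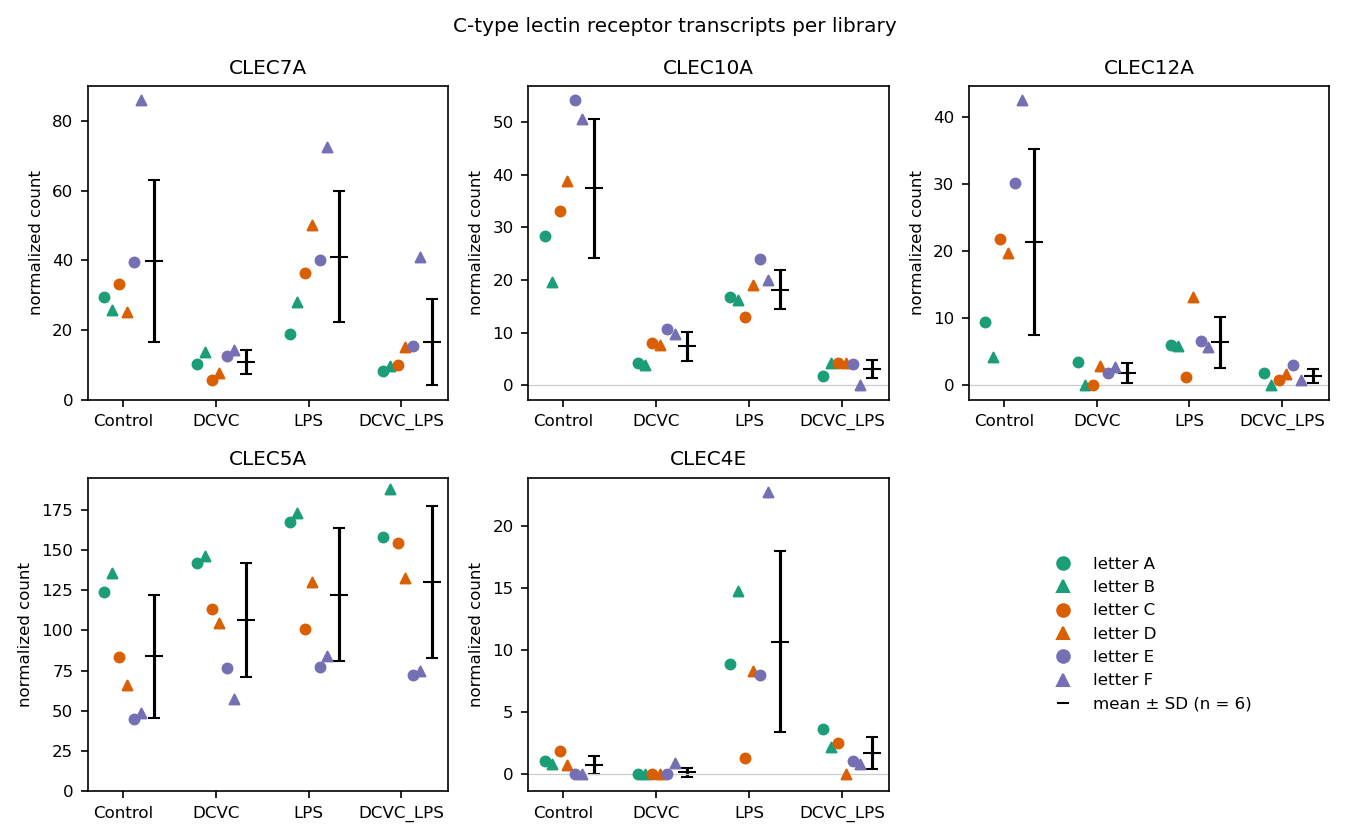
Normalized counts of 5 receptors in each library (points, colour and shape by letter) with the mean and SD of each group of 6 beside them. CLEC7A, CLEC10A and CLEC12A stand below every Control library in DCVC, CLEC4E is high in the LPS group apart from 1 library, and CLEC5A spreads by letter in every group.

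Against Control, limma called CLEC10A alone of the 3 tested receptors with LPS, as lower, where 78.4% of all tested genes were called and 40.6% were lower. With DCVC it called 2 of 3, CLEC7A and CLEC10A, both lower, beside 59.7% of tested genes called and 32.2% lower. In DCVC_LPS against LPS it called the same pair, both lower, beside 72.7% called and 39.4% lower. In DCVC_LPS against DCVC it called CLEC10A as lower, beside 62.1% called and 32.2% lower. Since most tested genes were called, such counts show nothing particular to the receptors, and each receptor is described by its own values. Without the minimum mean, 3 of 7 receptors were called with LPS (48.5% of all genes), 3 with DCVC (37.2%), 4 in DCVC_LPS against LPS (46.2%) and 2 in DCVC_LPS against DCVC (36.2%). The comparisons share libraries: Control serves 2 of them, and so does each of the LPS, DCVC and DCVC_LPS groups.

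Levels can be set between receptors per kilobase of exon. In Control, CLEC5A was first with 20.3 ± 9.30 normalized counts per kilobase, followed by CLEC10A (15.2 ± 5.36), CLEC7A (9.50 ± 5.55) and CLEC12A (6.57 ± 4.27), and the mean ± SD of each overlapped that of its neighbour. CLEC4A (0.358 ± 0.610) and CLEC4E (0.314 ± 0.294) followed far below, and CLEC4D was at 0. With LPS the per-kilobase order was CLEC5A (29.6 ± 10.1), CLEC7A (9.78 ± 4.48), CLEC10A (7.37 ± 1.53), CLEC4E (4.41 ± 3.02) and CLEC12A (1.98 ± 1.17). CLEC5A stood apart there, and CLEC7A and CLEC10A did not differ beyond their spread. With DCVC, CLEC5A (25.9 ± 8.58) was above CLEC10A (2.999 ± 1.13) and CLEC7A (2.54 ± 0.822), which overlapped, and CLEC12A was at 0.551 ± 0.456. In DCVC_LPS, CLEC5A (31.5 ± 11.4) was followed by CLEC7A (3.95 ± 2.94), CLEC10A (1.25 ± 0.724), CLEC4E (0.701 ± 0.546) and CLEC12A (0.423 ± 0.326).

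CLEC7A encodes dectin-1, the receptor for fungal beta-glucans, and lies on chromosome 12, 10116777 to 10130258, minus strand (GRCh38, GENCODE 29, as for all genes here). Its level ran from 25.1 to 86.0 normalized counts in Control, with a median of 31.3. In DCVC it ran from 5.68 to 14.3, with a median of 11.3, so that every DCVC library was below every Control library. Of all tested genes, 19.8% were lower with no overlap in this comparison. On log2(value + 1) CLEC7A fell by 1.72 ± 0.36 (SE) with DCVC (limma adjusted p = 0.00022), and the DCVC library was lower in 6 of 6 letters, at a median ratio of 0.310. Within the pairs the change was -1.15 in A/B, -1.97 in C/D and -2.05 in E/F, each past the threshold.

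LPS alone left CLEC7A between 18.8 and 72.6, with a median of 38.1, across the Control range. The change was 0.06 ± 0.36 (adjusted p = 0.877), with 4 letters higher and 2 lower. In DCVC_LPS the level ran from 8.22 to 41.0, with a median of 12.5, and 5 of 6 libraries were below every LPS library. CLEC7A fell by 1.35 ± 0.36 against LPS (adjusted p = 0.0016), again in 6 of 6 letters, and a pair-wise value of -1.07 in E/F missed the threshold (adjusted p = 0.114). The library of letter F was the highest for this gene in each of the 4 groups. DCVC_LPS did not differ detectably from DCVC (0.43 ± 0.36, adjusted p = 0.3).

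CLEC4E encodes Mincle, which binds mycobacterial cord factor and the nuclear protein SF3B3 of dead cells, and lies on chromosome 12, 8533305 to 8540963, minus strand. It had 5 reads over the 6 Control libraries and 1 read over the 6 DCVC libraries. With LPS it had 49 reads, and its level ran from 1.29 to 22.8 normalized counts with a median of 8.64. Of the LPS libraries, 5 of 6 were above every Control library, and the exception was letter C with 1 read. The ratio of LPS to Control was 13.5 (95% counting interval 5.42 to 43.5, exact permutation p = 0.00433, two-sided, 6 against 6). Intervals here cover counting error only, and 16 such tests were made, with 0.00216 as the smallest p that this design allows. The fit without a minimum gave a rise of 2.53 ± 0.43 on log2(value + 1) (limma adjusted p = 1.49e-05), which within pairs was 2.68 in A/B, 1.04 in C/D (adjusted p = 0.475) and 3.87 in E/F.

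After DCVC, LPS brought CLEC4E to 11 reads over 6 libraries, from 0 to 3.65 normalized counts with a median of 1.59. That was 6.17-fold lower than with LPS alone (counting interval 3.16 to 13.2, exact permutation p = 0.00866), and CLEC4E fell by 1.98 ± 0.43 in the fit (adjusted p = 0.000375). The groups overlapped, since 3 of 6 DCVC_LPS libraries lay below every LPS library, and letter C went the other way. Within pairs the change was -1.71 in A/B, -1.31 in C/D (adjusted p = 0.351) and -2.92 in E/F. DCVC_LPS stood above DCVC by 1.11 ± 0.43 (adjusted p = 0.0451), a call that was lost in 22 of 37 other settings, among them the omission of any of the first 5 DCVC letters (adjusted p = 0.078 to 0.081). DCVC alone gave -0.56 ± 0.43 (adjusted p = 0.355), at a depth of 5 reads against 1.

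CLEC4D, on chromosome 12 at 8509475 to 8522366, plus strand, encodes the partner of Mincle in lipid recognition. A single read in 1 DCVC library was its only trace. The 0 reads of the other groups allow a mean of up to 0.457 normalized counts in Control, 0.632 in LPS and 0.457 in DCVC_LPS (3 reads over the group). Its bounds also hold the pseudogene SUPT4H1P2, which makes even that read uncertain. CLEC6A, encoding dectin-2, was at 0 in all 24 libraries.

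CLEC5A encodes MDL-1, an activating receptor that pairs with TYROBP, and lies on chromosome 7, 141927357 to 141947007, minus strand. Its level ran from 44.8 to 135.7 normalized counts in Control (median 74.8), from 77.4 to 173.0 in LPS (median 115.5), from 57.1 to 146.5 in DCVC (median 109.1) and from 72.5 to 188.1 in DCVC_LPS (median 143.7). The groups overlapped in every comparison. Letters took 74.1% of the sum of squares of CLEC5A, against 25.6% for CLEC7A, 4.61% for CLEC10A and a median of 7.26% over all tested genes. Over the 4 groups the mean was 154.4 in letters A/B, 110.7 in C/D and 67.0 in E/F.

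Without the letters in the fit of all libraries, no change of CLEC5A passed the threshold. LPS against Control gave 0.59 ± 0.30 (limma adjusted p = 0.0786), DCVC against Control 0.40 ± 0.30 (0.269) and DCVC_LPS against DCVC 0.27 ± 0.30 (0.459). With the letter as a replicate block the same values had adjusted p = 4.37e-05, 0.00337 and 0.0363, as rises beside 39.9%, 31.4% and 33.6% of tested genes that rose in that fit. LPS exceeded Control in 6 of 6 letters, by a median ratio of 1.54 (1.21 to 1.96), DCVC exceeded Control in 6 of 6 (1.26, from 1.08 to 1.71), and DCVC_LPS exceeded DCVC in 5 of 6. In pairs fitted apart, the LPS change was 0.39 in A/B, 0.62 in C/D and 0.77 in E/F (adjusted p = 0.0252, 0.00477 and 0.0116). The DCVC change was 0.15 (adjusted p = 0.39), 0.55 (0.0138) and 0.49 (0.103), and DCVC_LPS against DCVC passed in no pair (0.25, 0.39 and 0.16, adjusted p = 0.153, 0.0677 and 0.573). Under equal totals the LPS change was 0.12 (adjusted p = 0.712, and 0.33 with the replicate block). The DCVC change was 0.64 there (adjusted p = 0.0617, and 4.14e-05 with the block), and the change from DCVC to DCVC_LPS was -0.03 (adjusted p = 0.943). DCVC_LPS did not differ detectably from LPS on the deposited scale (0.07 ± 0.30, adjusted p = 0.842), nor in any pair (adjusted p = 0.92, 0.114 and 0.636), while equal totals with the block gave 0.50 (adjusted p = 0.000511). Omission of Control A, Control B or LPS E also carried the LPS change past the threshold (adjusted p = 0.0374, 0.0281 and 0.0451).

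CLEC5A lies opposite MGAM, a maltase gene on the plus strand, and the strand setting of the counts is not given in the sources used here. MGAM ran from 19.8 to 44.4 normalized counts in Control, from 113.5 to 273.2 in LPS, from 38.4 to 80.1 in DCVC and from 72.5 to 105.9 in DCVC_LPS. Its part in the CLEC5A values was not tested, so these remain uncertain.

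**Figure D2:**
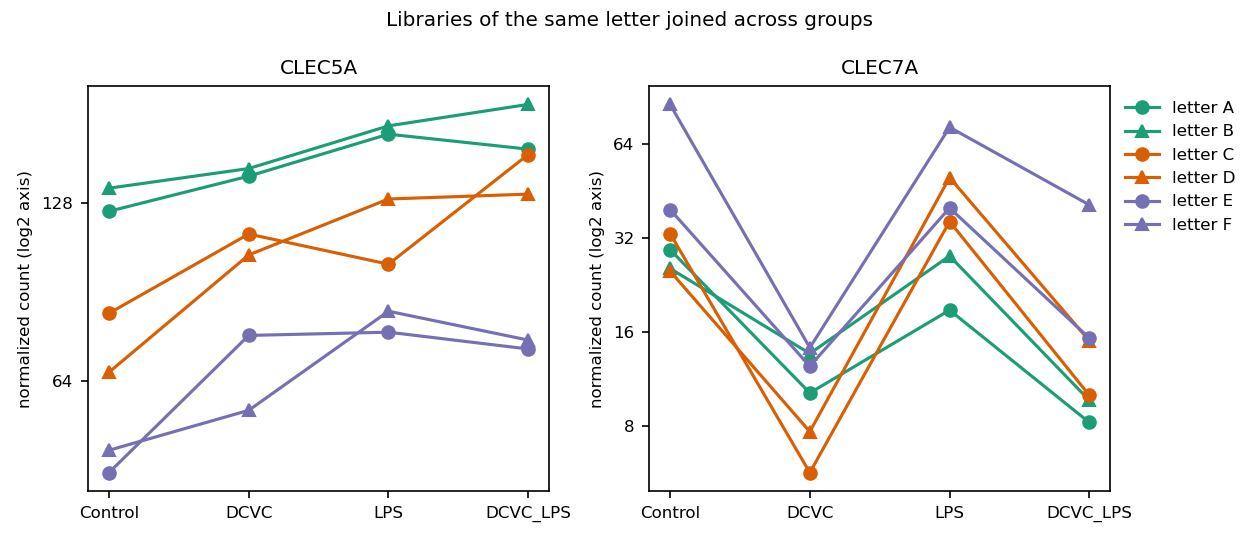
Normalized counts (log2 axis) of CLEC5A and CLEC7A, with the libraries of each letter joined across the 4 groups. CLEC5A keeps letters A and B on top and E and F at the bottom with a shallow climb from Control, while CLEC7A drops to DCVC and to DCVC_LPS in every letter.

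CLEC10A, the macrophage galactose-type lectin and a marker of one dendritic cell class, lies on chromosome 17, 7074537 to 7080307, minus strand. Its level ran from 19.6 to 54.2 normalized counts in Control (median 36.0), from 12.9 to 24.0 in LPS (median 18.0), from 3.91 to 10.7 in DCVC (median 7.89) and from 0 to 4.30 in DCVC_LPS (median 4.13). DCVC libraries lay below every Control library and DCVC_LPS libraries below every LPS library. Of all tested genes, 29.4% were lower with no overlap in the second of these. CLEC10A fell by 2.19 ± 0.35 with DCVC (limma adjusted p = 1.05e-05) and by 2.41 ± 0.35 in DCVC_LPS against LPS (adjusted p = 1.48e-06). Median ratios within a letter were 0.197 and 0.194, with 6 of 6 letters lower in both. All 3 letter pairs held both calls, from -2.05 to -2.28 with DCVC and from -1.69 to -3.34 in DCVC_LPS against LPS.

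LPS lowered CLEC10A as well, by 0.95 ± 0.35 (adjusted p = 0.0175), in 6 of 6 letters at a median ratio of 0.468. Only 4 of 6 LPS libraries lay below every Control library. Without letter C the change was -0.88 (adjusted p = 0.058), and within pairs it was -0.49 in A/B (adjusted p = 0.383), -1.14 in C/D and -1.22 in E/F (adjusted p = 0.133). DCVC_LPS was lower than DCVC by 1.16 ± 0.35 (adjusted p = 0.00619), in 5 of 6 letters, with -0.39 in A/B (adjusted p = 0.52), -0.78 in C/D (adjusted p = 0.0946) and -2.32 in E/F. DCVC_LPS F had 0 reads of CLEC10A.

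Of 5 markers of dendritic cells, CD1C, CD1A and FLT3 were lower beside CLEC10A, while XCR1 rose with DCVC and FCER1A was near 0. The summed level of the list was mostly FLT3, which was at 869.9 ± 512.9 in Control. That sum ran from 646.2 to 1731 normalized counts in Control and from 382.6 to 776.0 in LPS. With DCVC it ran from 258.2 to 493.3, and in DCVC_LPS from 158.4 to 236.3. Of the 5 markers, 4 had a mean of at least 10. CD1C, which marks the same dendritic cell class, was at 82.5 ± 25.8 in Control, 53.1 ± 15.5 in LPS, 16.5 ± 2.91 in DCVC and 13.8 ± 5.69 in DCVC_LPS. FLT3 and CD1A followed a like order from Control to DCVC_LPS, FCER1A was at or below 1.71 in every library, and XCR1 stood at 1.25 ± 1.61 in Control against 41.7 ± 9.44 in DCVC. Their part in the CLEC10A values was not tested.

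CLEC12A encodes MICL, an inhibitory receptor for uric acid crystals, and lies on chromosome 12, 9951316 to 9995694, plus strand. Its reads over the 6 libraries were 139 in Control, 31 in LPS, 12 in DCVC and 9 in DCVC_LPS. Normalized counts ran from 4.27 to 42.5 in Control (median 20.8), from 1.29 to 13.1 in LPS (median 5.93), from 0 to 3.41 in DCVC (median 2.23) and from 0 to 3.06 in DCVC_LPS (median 1.26). Control libraries followed the letters, with means of 6.86 in A/B, 20.8 in C/D and 36.4 in E/F. All DCVC libraries lay below all Control libraries. Among genes with a mean of at least 10, 19.8% did so, a share that does not cover CLEC12A. DCVC_LPS libraries were lower than LPS in 6 of 6 letters, 3 of them below every LPS library.

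By reads, CLEC12A was 11.9-fold lower with DCVC (counting interval 6.58 to 23.5, exact permutation p = 0.00216), 3.25-fold lower with LPS (2.19 to 4.96, exact permutation p = 0.0238) and 4.77-fold lower in DCVC_LPS than in LPS (2.22 to 11.4, exact permutation p = 0.00866). The fit without a minimum gave -2.94 ± 0.51 (limma adjusted p = 4.26e-05), -1.47 ± 0.51 (adjusted p = 0.0183) and -1.60 ± 0.51 (adjusted p = 0.011). DCVC_LPS and DCVC gave -0.12 ± 0.51 (adjusted p = 0.913), at 9 against 12 reads. The LPS call was lost without Control F (adjusted p = 0.061) or LPS C (0.0652), and without letter C, E or F (0.112, 0.074 and 0.103). The call in DCVC_LPS against LPS was lost without letter D (adjusted p = 0.0595) and was near the threshold under equal totals (limma adjusted p = 0.0482). In the letter pairs, in the order given above, the DCVC change was -1.82 (adjusted p = 0.253), -3.47 (0.0776) and -3.53 (0.0116), and the LPS change was -0.10, -1.93 and -2.36, past the threshold in E/F alone. DCVC_LPS against LPS passed in none of the pairs (-2.04, -1.36 and -1.39, adjusted p = 0.171, 0.415 and 0.0897). CLEC12A-AS1 and CLEC1B overlap this gene on the other strand, so its reads are uncertain. CLEC1B itself was at 0 in Control and LPS, and had 3 reads in DCVC and 1 in DCVC_LPS.

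CLEC4A encodes DCIR, which carries an inhibitory tail motif, and lies on chromosome 12, 8123632 to 8138607, plus strand. It had 3 reads in Control, 1 in LPS, 2 in DCVC and 0 in DCVC_LPS, the last of which allows a mean of up to 0.457 normalized counts. No difference was detectable at this depth, and 3 overlapping gene models add to the doubt.

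**Figure D3:**
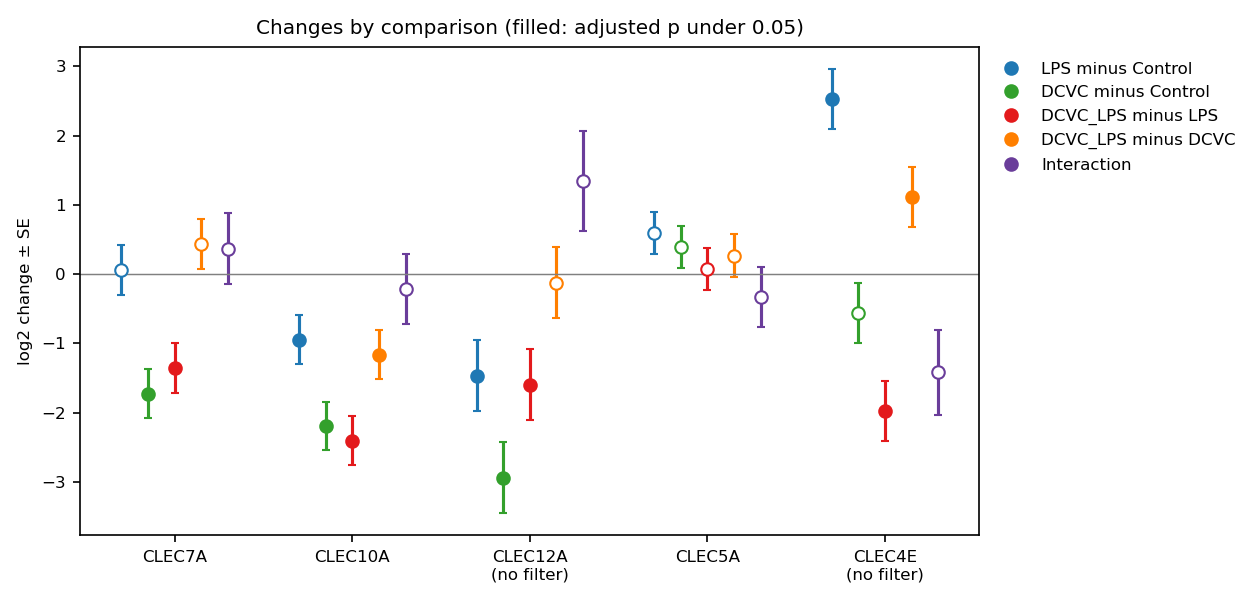
Log2 changes with SE of 5 receptors in each comparison, on log2(value + 1), filled where the limma adjusted p was under 0.05 (CLEC12A and CLEC4E from the fit without a minimum). CLEC7A, CLEC10A and CLEC12A are below 0 in both DCVC contrasts, CLEC4E is above 0 with LPS, and all points of CLEC5A are open. The interaction is the LPS change with DCVC minus that without it, and none of its points is filled.

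Whether DCVC altered the LPS change itself was asked of the interaction. It was called for 0 of the 3 tested receptors by limma, edgeR and DESeq2, beside 45.7% of tested genes by limma, and none had an unadjusted p under 0.05 in the limma fit without the letters. Values were -0.33 ± 0.43 for CLEC5A (limma adjusted p = 0.571), 0.37 ± 0.51 for CLEC7A (0.586) and -0.21 ± 0.50 for CLEC10A (0.762). In the fit without a minimum CLEC4E gave -1.42 ± 0.61 (unadjusted p = 0.0281, adjusted p = 0.0971) and CLEC12A 1.34 ± 0.72 (unadjusted p = 0.0743, adjusted p = 0.206). With the block in that fit, limma gave unadjusted p = 0.0336 for CLEC4E and 0.03 for CLEC12A (adjusted p = 0.0955 and 0.0867). Without LPS C, the library with 1 read of CLEC4E, the CLEC4E interaction was -1.83 (adjusted p = 0.00937). On other scales it was smaller, at -1.08 under equal totals (adjusted p = 0.225) and -0.74 by edgeR (adjusted p = 1). By reads, LPS raised CLEC4E 13.5-fold without DCVC and 11.25-fold after it (counting interval 1.64 to 484.1, from 11 reads against 1). Within pairs the limma interaction was -0.75, -0.13 and -3.38 (adjusted p = 0.362, 1 and 0.0817).

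For 3 receptors the sequence before the start of transcription was at hand from RefSeq (GRCh38.p14): CLEC4E, which rose with LPS, CLEC12A, which fell with LPS and with DCVC, and CLEC5A, which varied by letter. They are shown 5′ to 3′ on the strand of the gene, up to 250 bases before the start, stopping before any exon of the gene in GENCODE 29, with matches in capitals.
CLEC4E: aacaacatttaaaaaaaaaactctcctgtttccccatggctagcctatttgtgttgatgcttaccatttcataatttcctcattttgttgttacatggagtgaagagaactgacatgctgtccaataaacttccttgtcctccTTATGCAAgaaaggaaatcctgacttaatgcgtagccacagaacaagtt
CLEC12A: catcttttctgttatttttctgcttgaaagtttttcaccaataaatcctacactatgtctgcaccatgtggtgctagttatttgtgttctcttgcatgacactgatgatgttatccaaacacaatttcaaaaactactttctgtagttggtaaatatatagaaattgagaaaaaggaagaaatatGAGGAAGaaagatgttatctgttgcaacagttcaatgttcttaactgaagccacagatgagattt
CLEC5A: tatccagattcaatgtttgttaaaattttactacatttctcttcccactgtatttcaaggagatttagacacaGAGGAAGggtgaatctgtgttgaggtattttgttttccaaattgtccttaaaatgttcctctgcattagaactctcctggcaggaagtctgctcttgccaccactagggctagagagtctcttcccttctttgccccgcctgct

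These lie at chr12:8540964-8541155 (minus strand, CLEC4E), chr12:9971159-9971408 (plus strand, CLEC12A, between exons of its longer GENCODE model) and chr7:141947008-141947224 (minus strand, CLEC5A). In the 250 bases, 6 motifs were searched on both strands. The printed runs leave out the last 58 of these bases for CLEC4E and the last 33 for CLEC5A. Positions below count from the RefSeq start and so include them. CLEC4E held the C/EBP letters TTGCNNAA on the reverse strand, 107 to 100 bases before the start. On the strand of the gene, as printed, they read TTATGCAA. CLEC12A held the PU.1 letters GAGGAAG at 65 to 59 bases before the start, and CLEC5A held them at 177 to 171. Of 35116 RefSeq promoters, 9.05% hold the C/EBP letters and 11.2% the PU.1 letters. The letters of NF-kB (by name, in 22.6% of promoters), AP-1 (TGANTCA, 6.57%), the antioxidant response element (TGACNNNGC, 10.9%) and ISRE (by name, 3.02%) were in none of the 3 windows. A match describes letters only.

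Transcripts of the chains and kinases behind these receptors were measured from a list of 13 genes, 13 of them tested. Counts of this and later lists on the deposited scale stand beside 78.4% of tested genes called with LPS, 59.7% with DCVC and 72.7% in DCVC_LPS against LPS. Medians stand beside -0.03, -0.03 and -0.07 on that scale, and beside -0.505, 0.215 and 0.355 under equal totals. With DCVC, 11 fell and none rose, at a median of -0.80 against -0.03 over all genes (1 rose and 10 fell under equal totals). FCER1G, the chain that carries Mincle, fell from 8435 ± 2558 to 3462 ± 595.4 normalized counts (-1.25 ± 0.15, limma adjusted p = 2.52e-07), SYK fell from 3201 ± 283.9 to 1644 ± 48.7 (-0.96 ± 0.07, 4.09e-11), and TYROBP fell by 0.45 ± 0.06 (1.58e-06). In DCVC_LPS against LPS, 2 rose and 10 fell (4 and 6 under equal totals), among them FCER1G (-1.06 ± 0.15) and PLCG2 (-1.24 ± 0.07), a phospholipase below SYK. The median was -0.63 against -0.07 over all genes. LPS against Control gave 5 higher and 4 lower at a median of 0.07 (3 and 8 at -0.41 under equal totals), with SYK down by 1.59 ± 0.07 and the Src-family kinase LYN up by 2.94 ± 0.07.

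Of 19 genes from the CARD9 complex to NF-kB, LPS raised 12 and lowered 3, DCVC raised 3 and lowered 9, and DCVC_LPS stood higher than LPS for 5 and lower for 11. The shares called, 15 and 12 of 19 against Control, were near those of all genes (78.4% and 59.7%). Medians were 0.47, -0.18 and -0.36. Under equal totals these splits were 9 and 8, 8 and 8, and 7 and 8. The medians there were -0.004, 0.07 and 0.07, against -0.505, 0.215 and 0.355 over all tested genes on that scale. BCL10 and MALT1, the partners of CARD9, did not pass the threshold with LPS on the deposited scale (-0.03 ± 0.10 and -0.01 ± 0.11, adjusted p = 0.796 and 0.966). Both were lower under equal totals (-0.504 and -0.482), near the all-gene median of -0.505 on that scale. MALT1 was lower in DCVC_LPS than in LPS (-0.90 ± 0.11, adjusted p = 8.34e-08) and BCL10 higher (0.32 ± 0.10, adjusted p = 0.00443). The ubiquitin ligase TRIM62, which modifies CARD9, rose with DCVC (0.73 ± 0.11, adjusted p = 4.34e-06).

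Among 7 inhibitors of the pathway, the phosphatase genes INPP5D and PTPN6 fell with LPS (-3.15 ± 0.09 and -1.24 ± 0.14) and with DCVC (-0.74 ± 0.09 and -1.13 ± 0.14). The list gave 3 higher and 3 lower with LPS, 1 and 3 with DCVC (3 and 3 under equal totals), and 2 and 4 in DCVC_LPS against LPS (3 and 1 under equal totals), beside 78.4%, 59.7% and 72.7% of all genes called. Its medians were -0.13, -0.08 and -0.39. Under equal totals the DCVC median and that of DCVC_LPS against LPS were 0.17 and 0.04, against 0.215 and 0.355 over all tested genes. Of 4 host ligands, 3 fell with DCVC, at a median of -0.84, and 4 in DCVC_LPS against LPS, at -0.83 (3 under equal totals). SF3B3, the ligand of Mincle, was 2619 ± 220.6 in Control and 5072 ± 580.2 in LPS (0.95 ± 0.07, adjusted p = 5.61e-12), and was lower in DCVC_LPS, at 3408 ± 255.4 (-0.57 ± 0.07, adjusted p = 9.88e-08, and -0.14 with adjusted p = 0.062 under equal totals).

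The factors known at promoters of these receptors moved apart. SPI1, encoding PU.1, fell with LPS (-0.53 ± 0.16, adjusted p = 0.00521), did not pass the threshold with DCVC (-0.11 ± 0.16, adjusted p = 0.583) and was higher in DCVC_LPS than in LPS (0.88 ± 0.16, adjusted p = 3.65e-05). CEBPB rose with LPS (1.55 ± 0.17), while CEBPA fell (-3.48 ± 0.15). Of the 7 factors, 4 rose and 3 fell with LPS, 2 rose and 1 fell with DCVC (3 and 1 under equal totals), and 3 were higher and 2 lower in DCVC_LPS against LPS (5 and 2 under equal totals), at medians of 1.55, 0.34 and 0.17 and beside the same 78.4%, 59.7% and 72.7% of all genes. Of 14 response genes of the dectin-1 and CARD9 pathway, which are also targets of LPS, 13 rose with LPS and none fell, at a median of 8.17 (13 and 1 under equal totals). In DCVC_LPS against LPS, 1 was higher and 13 lower, at -2.34 (1 and 11 under equal totals).

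Other genes with a C-type lectin domain numbered 45, of which 19 were tested. LPS raised 5 and lowered 11, at a median of -0.55. DCVC raised 2 and lowered 12 (4 and 11 under equal totals), at -0.67. DCVC_LPS stood higher than LPS for 6 and lower for 11 (8 and 8 under equal totals), at -0.51. Over all tested genes the medians were -0.03, -0.03 and -0.07. CD209, encoding DC-SIGN, shared the order of CLEC10A, with 1466 ± 342.6 normalized counts in Control, 492.8 ± 85.1 in LPS, 393.2 ± 51.1 in DCVC and 212.6 ± 43.8 in DCVC_LPS. OLR1, the receptor for oxidised LDL, rose with LPS by 4.48 ± 0.34 (adjusted p = 9e-12), fell with DCVC (-3.81 ± 0.34, 1.15e-09) and was lower in DCVC_LPS than in LPS (-2.37 ± 0.34, 1.03e-06), which are the directions of CLEC4E in the first and the last of these. CLEC2B, a ligand of an NK cell receptor, fell in all 3 comparisons (-2.02 ± 0.34, -1.67 ± 0.34 and -1.39 ± 0.34). COLEC11 and KLRG1 went up with DCVC (2.00 ± 0.38 and 1.32 ± 0.32). CLEC3A, CLEC4C, CLEC4F, CLEC6A and CLEC14A were at 0 in all 24 libraries.

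**Figure D4:**
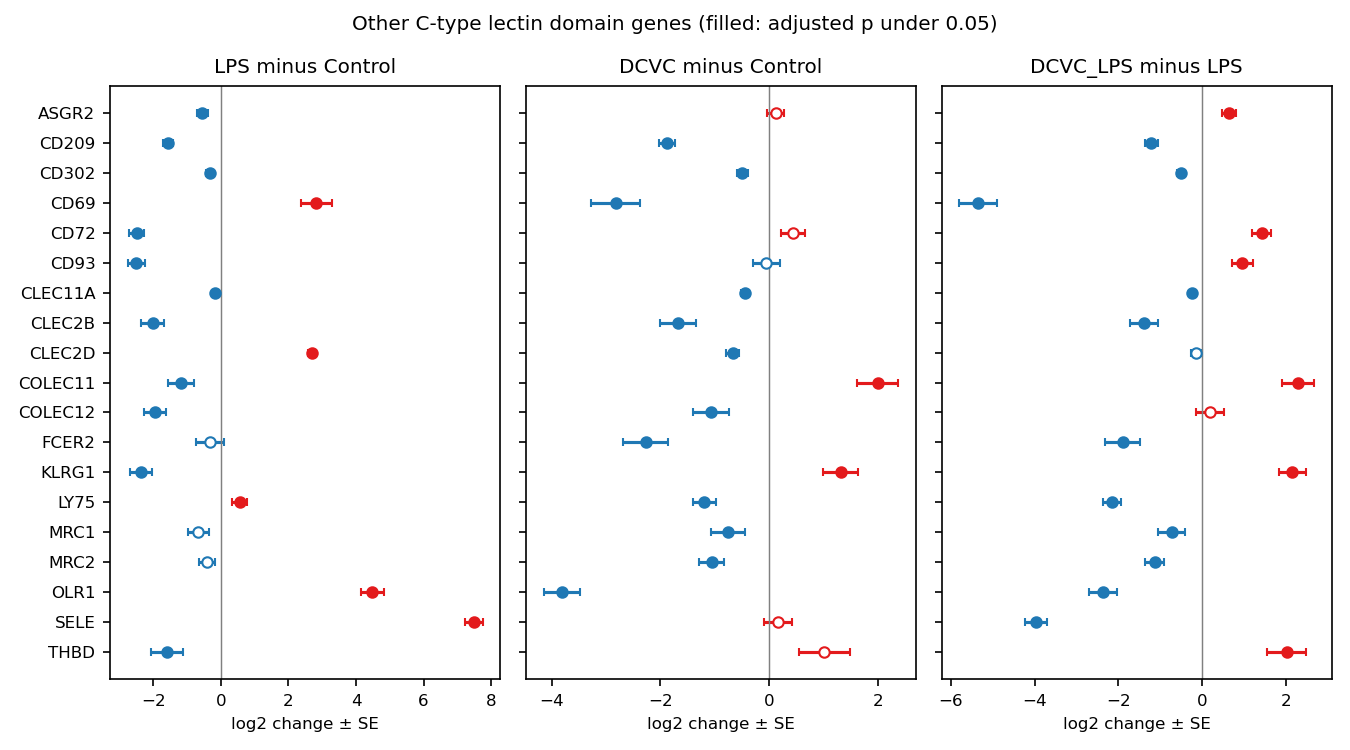
Log2 changes with SE on log2(value + 1) of the 19 tested genes with a C-type lectin domain outside the set, 1 panel per comparison, red above 0 and blue below, filled where the limma adjusted p was under 0.05. Most points lie left of 0 in the DCVC panel, with COLEC11 and KLRG1 filled on the right.

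Genes with the closest pattern were sought over the 24 libraries, by Pearson correlation of log2(value + 1) among all tested genes, given as a description since the libraries share groups and letters. CLEC5A was closest to PAM (r = 0.945), ADAMDEC1 (0.925) and PLD3 (0.895). PAM stood at 1414 ± 527.3 in Control, 1914 ± 483.0 in LPS, 1807 ± 535.8 in DCVC and 2348 ± 575.9 in DCVC_LPS. CLEC10A was closest to LAT2 (0.956), STX6 (0.937) and CRYBG1 (0.929), and LAT2 stood at 6154 ± 1137 in Control, 3708 ± 278.2 in LPS, 2018 ± 394.7 in DCVC and 1314 ± 152.8 in DCVC_LPS. CLEC7A was closest to RPS2P46 (0.922), a pseudogene whose reads are uncertain, RNASEH2C (0.907) and GSTP1 (0.902). Between receptors, r was 0.548 for CLEC7A and CLEC10A, -0.47 for CLEC5A and CLEC7A and -0.398 for CLEC5A and CLEC10A.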

How the data were processed

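The deposited unit is a signal, the normalized count of a gene in a library, and not a raw count. The values themselves show that the authors scaled whole reads by 1 factor per library: 100% of the positive values in each library came out as whole multiples of 1 read within 0.1 read. STAR, featureCounts 1.6.1, DESeq2 1.24.0, R 3.6.0, FastQC 0.11.5, MultiQC 0.9 and the build hg38 appear, without roles, per the submitters' processing notes. Of annotation and strand setting nothing is said in the sources used here. Of 58381 entries, 19595 (33.56%, with 1.006% of the values) carry no gene name and were left out, and 51 symbols on 2 entries were summed. Mean normalized totals were 21135356 in Control, 29427331 in LPS, 17774466 in DCVC and 21831254 in DCVC_LPS.

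Tests were run with limma 3.58.1 (R 4.3.3, trended empirical Bayes) on log2(value + 1), which understates changes of low genes. A single fit took all 24 libraries, with 20 residual degrees of freedom, over 13900 genes whose mean reached 10, and a Benjamini-Hochberg adjusted p under 0.05 over these genes is a call. Receptors below the minimum were read from the same fit without it, and by exact permutation of their values and the ratio of their reads with a 95% counting interval. Alternatives were edgeR 4.0.16 and DESeq2 1.42.0 on the recovered reads, other pseudocounts and minimums, equal totals, the letter as a block, letter pairs, and omission of each letter or library. The scripts were tested on simulated data. Same-lettered libraries deviated together in all 36 pairs of groups and letters (r from 0.134 to 0.539, median 0.330). The letters of the titles were therefore taken as pairing the samples in the block and in ratios within letters. The main fit and the exact permutation tests left the letters out, so their p-values do not use this pairing. With the block, the DCVC changes of CLEC7A and CLEC10A had limma adjusted p = 1.56e-06 and 8.39e-06. Without a minimum, the block gave limma adjusted p = 3.33e-06 for CLEC12A with DCVC and 3.4e-05 for CLEC4E with LPS. The labels do not say what a letter marks.

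Named genes are the receptors, the 3 genes closest to each tested receptor, and genes of fixed lists, with up to 3 raised and 3 lowered per list and comparison, not all of which are described. The members and lists were chosen with earlier results of these data known. Gene positions and exon lengths are from GENCODE 29, and promoters from RefSeq, where 3 of the 7 receptors matched and 4 did not.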

Additional observations from a re-analysis of the deposited data

Results flagged for a closer look

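In 2 of 19 groups of 6 libraries examined, 1 library stood apart from the others by more than Dixon's 95% limit, and chance alone flags about 1 in 20 groups. Both concern CLEC7A and letter F. Control F had 86.0 normalized counts, against 39.6 in the next library, and DCVC_LPS F had 41.0, against 15.3.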

How the results depend on the processing

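The counts of called receptors rest on the minimum and on the letters. At a minimum of 50 only CLEC5A (mean 110.7) was tested. CLEC7A (27.0) and CLEC10A (16.5) were absent from that fit, so a 0 there says nothing about them. For LPS against Control, 1 receptor was called, with 3 without a minimum (by limma and by edgeR), 0 with a minimum of 50, 2 with the replicate block, 2 in letters C and D only, and 4 with the block and no minimum. For DCVC against Control, 2 were called, with 3 without a minimum (limma and edgeR), 3 with the block (also under equal totals), 3 in letters C and D only, 0 at a minimum of 50 and 4 with the block and no minimum. For DCVC_LPS against LPS, 2 were called, with 4 without a minimum (limma, edgeR, or limma with the block), 0 at 50 and 1 in letters E and F only. For DCVC_LPS against DCVC, 1 was called, with 2 without a minimum (limma, edgeR, or limma with the block), 0 at 50, 2 with the block, and 0 in letters A and B or in C and D only. With each letter or library left out in turn, these counts ran from 0 to 2, 2 to 2, 2 to 2 and 1 to 1, and the 0 came without letter C. The replicate block changed the calls of CLEC5A alone among the 3 tested receptors. Under equal totals with the block, CLEC5A was also called in DCVC_LPS against LPS (limma adjusted p = 0.000511). For LPS against Control, CLEC5A and not CLEC10A was called in letters A and B only and in E and F only. Of 1402 alternative values over all receptors, comparisons and settings together, 43 lost a call, 16 gained one and 0 reversed. This total includes CLEC4A and CLEC4D, with 6 reads and 1 read in all, which had no call in any setting. Settings without a minimum joined to another choice, and equal totals with the block, were chosen after seeing the data. Low counts limit CLEC4A, CLEC4D and CLEC4E most.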
